A study of Mus musculus with 120 samples.

Results

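The comparison is the effect of an obesogenic diet on liver RNA in females of the mouse strain CC060. It rests on 6 of the 120 libraries of the series, chosen by their labels: CC060 females on a high-fat and high-sucrose (HF/HS) diet, 3 libraries, against CC060 females on the control diet, 3 libraries. CC060 is 1 of 10 Collaborative Cross strains in the series, inbred mouse lines that each carry their own mixture of several founder genomes. For 12 weeks the HF/HS mice ate a diet with 42% of calories as milkfat, 0.2% cholesterol and over 30% sucrose. Control mice ate a diet of matched ingredients that was low in fat and reduced in sucrose. All 6 libraries are from whole liver, and the labels give no age and no transgene. Separate animals are not stated for the 3 libraries of a diet, and a p-value here measures the spread between libraries, which may be technical.

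The liver makes cholesterol when cells lack sterol and stops when sterol is plentiful. The transcription factor SREBP-2 turns on the enzymes of the pathway, and dietary cholesterol holds it in the endoplasmic reticulum. The nuclear receptor LXR senses oxidised sterols and turns on the transporters that move cholesterol into bile, as well as SREBP-1c, which drives fatty acid synthesis. Fat that is neither burned nor exported is stored in lipid droplets.

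Control 1 stood apart from the other 5 libraries before any comparison of diets. Across 11753 genes its Pearson correlations with the others were 0.919 to 0.934, while correlations among the others reached 0.982. It held the highest value of the 6 libraries in 3454 genes and the lowest in 4378. Its distance from the rest of its group (0.779, root mean square log2) was the third largest of all libraries compared, and the 102 libraries of the other 9 strains ranged from 0.181 to 0.779 with a median of 0.334. Ddit4, a stress-induced inhibitor of the growth kinase mTORC1, had a value of 408 in control 1 and 2.33 to 3.99 in the other 5. Hamp, the gene of the iron hormone hepcidin, had 48.9 in control 1 and 1134 to 6983 elsewhere, and Car3, an abundant carbonic anhydrase, had 20.8 against 1098 to 2321. The neutrophil gene S100a9 was at 26.1 in control 1 and at 0.755 to 3.98 elsewhere, and the haemoglobin gene Hbb-b1 was at 3136 against 158.7 to 1117. The part of these RNAs in the diet comparison was not tested, and results are given with and without control 1 where it changes them.

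The values are FPKM-like and rescaled by the authors, so the depth of the libraries is unknown. Library totals ran from 926928 to 1139021 units, and 34.3% to 35.6% of rows were at 0. Xist, the RNA that coats the inactive X chromosome, was at 64.9 to 91.0. Hepatocyte markers summed to 73020 to 111400. Of 5 fat cell markers, Lep, Plin1 and Retn were at 0 in all 6 libraries. The 5 summed to 0.046 to 0.0864 in the controls and to 0.113 to 0.325 on HF/HS, and none reached the mean of 1 needed for a test. Alb was listed at 0 in all 6, so an exact 0 may be a failed estimate. The labels name a kit that depletes ribosomal RNA and another for mRNA, with no kit given for a single library. Rmrp, an RNA without a poly(A) tail, was at 0.662 to 10.2 in the 6 libraries. In 46 female libraries of 8 other strains, with CC003 left out, it was at 8736 to 22640. Levels in CC060 and in other strains therefore cannot be told apart from library preparation, whereas the diets were compared within CC060.

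With the spread of these 6 libraries alone, limma called 0 of 11753 genes (0%) at an adjusted p under 0.05, and the smallest adjusted p was 0.478, for Adam11. At an unadjusted p under 0.05 there were 806 genes (6.86%), 438 higher on HF/HS (3.73%) and 368 lower (3.13%), and without control 1 there were 1629 (13.9%), again with 0 called. The 3 HF/HS values lay above all 3 control values in 935 genes (7.96%) and below them in 855 (7.27%). The sign of the difference turned in 2996 genes when control 1 was left out. A wider fit took the spread of each gene from 118 libraries of the series while comparing the same 6. It called 195 genes higher (1.66%) and 147 lower (1.25%). The same fit without control 1, chosen after seeing the data, called 47 higher (0.4%) and 157 lower (1.34%). Both fits called 69 genes in the same direction, 28 higher and 41 lower, and in 18 of the 69 the groups overlapped. Mir6937, chosen after its values were seen, was 1 of these, at 12014 in HF/HS 2 and listed at 0 in the other 5. Below, a gene "passed" only where one of these 2 fits is named. Both fits give each gene 1 spread for all groups of the series. CC060 female controls lay 0.519 to 0.779 from the rest of their group, against a median of 0.334 in the other strains. Adjusted p-values of the wider fits may therefore be too small for this comparison.

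**Figure D1:**
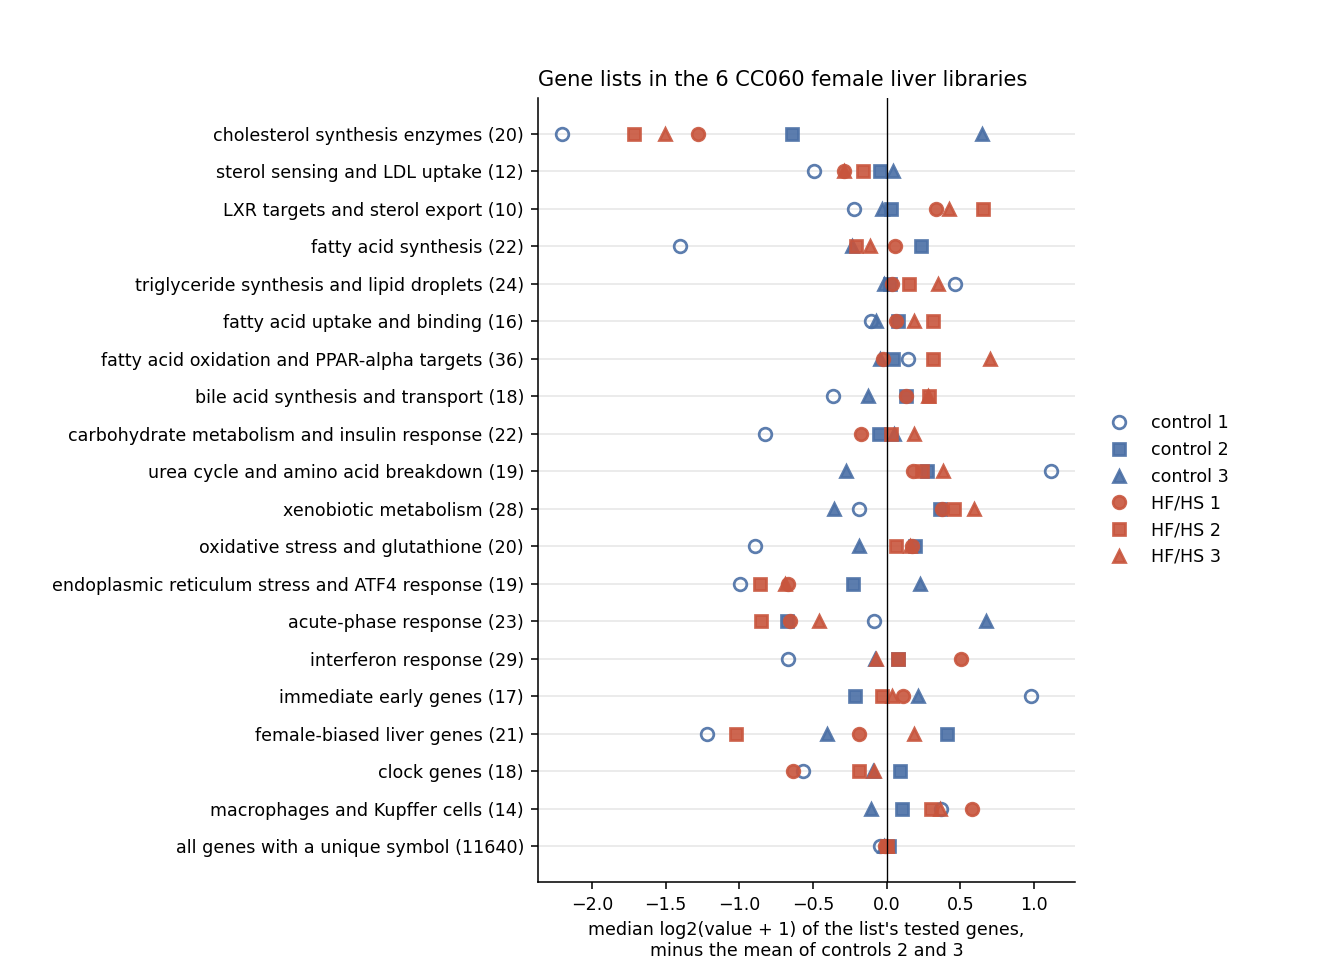
Each row is a gene list with its number of tested genes, and each symbol is 1 library; the horizontal axis is the median log2(value + 1) of the list minus the mean of controls 2 and 3. Control 1 (open circles) lies far from controls 2 and 3 in fatty acid synthesis (-1.40), the urea cycle (1.11) and immediate early genes (0.98), and in cholesterol synthesis it lies lowest, at -2.20, with the 3 HF/HS libraries between -1.28 and -1.72.

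Genes of cholesterol synthesis were lower on the HF/HS diet than in controls 2 and 3, and control 1 was itself low. Controls 2 and 3 also lay apart, with list medians of -0.64 and 0.64 (log2 against their mean). The difference was thus larger against control 3 than against control 2. Of the 20 enzymes tested, 17 had a lower mean on HF/HS, with a median log2 difference of -0.83 beside 0.01 over all genes, and of -1.53 without control 1. In 5 of them HF/HS was lower without overlap (7.27% of all genes), and in 18 without control 1 (18% of all genes). The fit with 118 libraries called 6 of the 20 lower (1.25% of all genes), and the fit without control 1 called 14 lower (1.34%).

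Sqle encodes squalene epoxidase, which puts oxygen on squalene ahead of ring closure (chromosome 15, 59315092 to 59331193, mm10). Its values were 1.47, 8.92 and 75.9 in controls 1, 2 and 3 and 0.531, 0.455 and 0.563 in HF/HS 1, 2 and 3. All 3 HF/HS libraries were lower than every control, and the controls themselves spanned a wide range. The log2 difference was -3.03 ± 1.16 (SE; adjusted p = 0.727, limma with 6 libraries). It passed with the spread of 118 libraries (adjusted p = 0.00255) and without control 1 (-4.19; adjusted p = 9.01e-06, limma with 117 libraries).

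Idi1 encodes the isomerase that makes the second of the 5-carbon building blocks (chromosome 13, 8885606 to 8892396). It was at 10.2, 25.8 and 151.7 in the controls and at 9.39, 4.92 and 5.57 on HF/HS. Control 1 lay just above HF/HS 1, and control 3 stood far above the rest. The log2 difference was -2.27 ± 0.92 (SE; adjusted p = 0.727, limma with 6 libraries) and passed in both wider fits (adjusted p = 0.00308 with control 1 and 2.92e-05 without it, limma). Lss, the cyclase that closes the sterol rings, was at 8.49, 11.3 and 21.4 in the controls and at 6.01, 4.47 and 4.84 on HF/HS, without overlap, and it passed in both fits (adjusted p = 0.0254 and 0.0133, limma).

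Promoters of the pathway are shown because most of its members were lower on HF/HS than in controls 2 and 3. RefSeq windows on GRCm38.p6, the assembly of mm10, were found for 15 of the 20 enzymes. The 250 bases before the start are given 5′ to 3′ on the strand of the gene for Idi1 (chr13:8885356-8885605, plus strand), Cyp51 (chr5:4104698-4104947, minus strand) and Hmgcs1 (chr13:119690101-119690350, plus strand). Capitals mark CCAAT on either strand, the box bound by NF-Y, and CACCCCAC, the core of a sterol regulatory element.
Idi1: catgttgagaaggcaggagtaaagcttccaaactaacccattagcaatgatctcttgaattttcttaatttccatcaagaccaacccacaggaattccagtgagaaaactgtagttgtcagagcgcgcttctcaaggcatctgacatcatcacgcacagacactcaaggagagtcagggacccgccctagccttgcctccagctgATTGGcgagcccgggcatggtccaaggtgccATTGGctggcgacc
Cyp51: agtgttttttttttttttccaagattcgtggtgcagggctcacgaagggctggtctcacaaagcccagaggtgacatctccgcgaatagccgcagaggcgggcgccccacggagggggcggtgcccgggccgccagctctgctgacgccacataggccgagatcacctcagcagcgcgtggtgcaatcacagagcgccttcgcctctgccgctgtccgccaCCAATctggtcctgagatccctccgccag
Hmgcs1: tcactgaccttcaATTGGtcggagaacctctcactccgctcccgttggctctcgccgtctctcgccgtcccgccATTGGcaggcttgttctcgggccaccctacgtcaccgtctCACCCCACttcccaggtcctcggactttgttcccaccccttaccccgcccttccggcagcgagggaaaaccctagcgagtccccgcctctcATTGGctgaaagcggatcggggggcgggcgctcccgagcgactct
CCAAT was found on either strand in 14 of the 18 windows of these 15 enzymes and in 33.8% of 32817 RefSeq windows of the same length. CACCCCAC was found in 2 of the 18, those of Acat2 and Hmgcs1, and in 2.58% of all windows. A match describes these letters only and is not a measured site. Hmgcs1, an early synthase of the pathway, was at 13.3, 21.8 and 123.1 in the controls and at 21.9, 12.9 and 11.7 on HF/HS, so its groups overlapped even without control 1. Cyp51, the lanosterol demethylase, was at 2.93, 16.6 and 96.4 in the controls and at 6.27, 2.99 and 2.87 on HF/HS. Cyp51 and Hmgcs1 were chosen after their values were seen.

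Genes of sterol export had higher values on HF/HS with and without control 1. Of 10 genes of LXR signalling and sterol export tested, among them the LXR genes Nr1h3 and Nr1h2 themselves, 9 had a higher mean, with a median log2 difference of 0.47 and of 0.50 without control 1. The groups did not overlap in 6 of the 10, the same number with and without control 1, against 7.96% and 15.6% of all genes. The fits with 118 and 117 libraries called 4 and 2 of them higher, against 1.66% and 0.4% of all genes.

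Abcg5 and Abcg8 encode the 2 parts of the transporter that moves cholesterol into bile. They lie head to head on chromosome 17 (84658234 to 84682923 and 84676302 to 84700333 in the table). These ranges overlap, since Abcg8 has 2 RefSeq starts and its range begins at the one inside Abcg5. Whether the 2 rows share reads is not known. The 109 bases between the Abcg5 start and the other Abcg8 start are chr17:84683012-84683120 on the plus strand of GRCm38.p6. They are shown because both genes were higher together.
Abcg5 to Abcg8: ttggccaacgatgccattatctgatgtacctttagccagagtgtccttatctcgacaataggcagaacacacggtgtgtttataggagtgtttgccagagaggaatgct
Abcg5 was at 16.3, 31.3 and 27.6 in the controls and at 88.4, 125.8 and 84.6 on HF/HS. Abcg8 was at 32.8, 39.6 and 42.6 in the controls and at 100.7, 147.6 and 86.7 on HF/HS. In both genes every HF/HS library exceeded every control, and HF/HS 2 was the highest. The log2 differences were 1.97 ± 0.28 for Abcg5 and 1.49 ± 0.22 for Abcg8 (SE; adjusted p = 0.689 for each, limma with 6 libraries). Both passed in both wider fits, Abcg5 with adjusted p = 9.04e-06 and 5.58e-04 and Abcg8 with 0.00238 and 0.0143 (limma).

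Lpcat3, which places polyunsaturated chains into membrane phospholipids, was at 51.5, 52.6 and 60.6 in the controls and at 82.3, 101.1 and 91.9 on HF/HS. It passed with control 1 (adjusted p = 0.0176) and not without it (0.083, limma). Cyp7a1, the rate-limiting enzyme of bile acid synthesis, was at 42.2, 16.3 and 18.0 in the controls and at 70.0, 46.1 and 59.8 on HF/HS. The groups did not overlap, but the log2 difference of 1.28 ± 0.38 passed in neither fit (adjusted p = 0.518 and 0.555, limma).

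**Figure D2:**
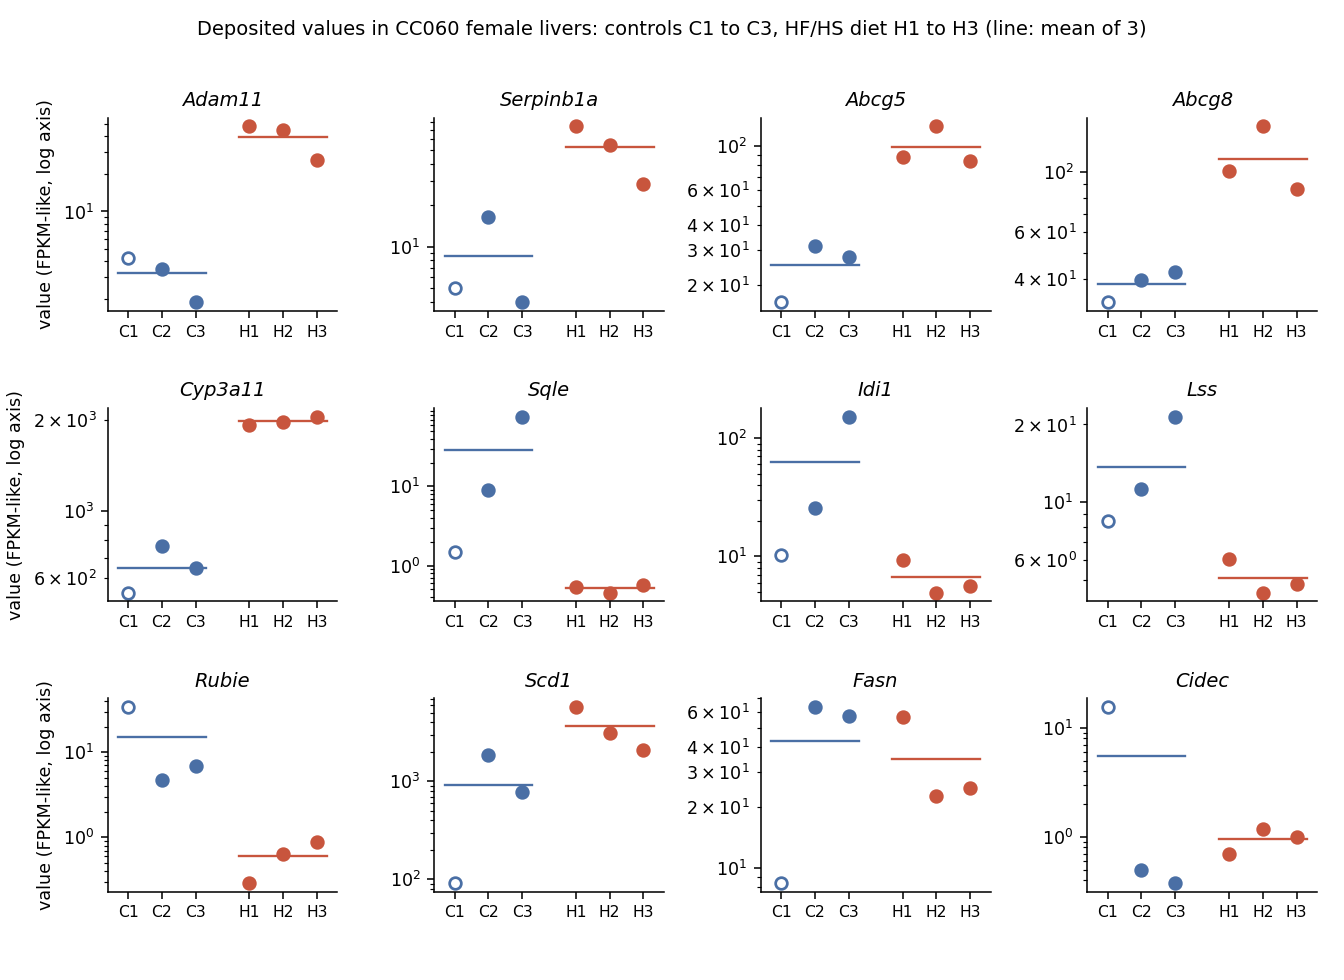
Values of 12 genes in the 6 libraries on a log axis, controls in blue and HF/HS in red, with control 1 as an open circle and lines at the mean of 3. Abcg5, Abcg8, Cyp3a11 and Adam11 are higher in every HF/HS library, Sqle and Rubie lower in every one, and control 1 lies far from controls 2 and 3 in Scd1, Fasn and Cidec.

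Fatty acid synthesis gave a different answer with and without control 1. Over 22 genes the median log2 difference was 0.23 with it and -0.14 without it, and control 1 was the lowest of the 6 libraries in 18 of the 22. With 118 libraries 3 were called higher (1.66% of all genes), and 0 with 117 (0.4%). Scd1, the desaturase that makes oleate, was at 91.7, 1878 and 779.3 in the controls and at 5731, 3140 and 2086 on HF/HS. Every HF/HS library was above every control, and control 1 was far below the rest. It passed in neither fit (adjusted p = 0.491 and 0.873, limma). Fasn, the fatty acid synthase, was at 8.397, 63.3 and 56.8 in the controls and at 56.3, 22.9 and 25.0 on HF/HS. Its log2 difference was 0.01 with control 1 and -0.89 without it. Srebf1, the gene of SREBP-1, was at 6.66, 134.0 and 60.9 in the controls and at 204.5, 140.3 and 122.4 on HF/HS. It passed with control 1 (adjusted p = 0.0387) and not without it (0.704, limma). Elovl3, an elongase of long chains, was at 5.95, 7.73 and 2.74 in the controls and at 17.6, 51.1 and 29.9 on HF/HS, without overlap, and passed with 118 libraries (adjusted p = 0.0396) but not with 117 (0.0918, limma).

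Genes that bring fat into the cell were higher on HF/HS in part. Of 16 uptake and binding genes, 3 were called higher with 118 libraries (1.66% of all genes) and 2 with 117 (0.4%). Lpl, the lipase that frees fatty acids from lipoproteins, was at 8.20, 9.07 and 4.66 in the controls and at 13.9, 43.7 and 18.7 on HF/HS. It did not overlap and passed in both fits (adjusted p = 0.0157 and 0.0311, limma). Cd36, a fatty acid transporter, was at 41.0, 19.8 and 12.0 in the controls and at 52.3, 26.1 and 34.9 on HF/HS. Control 1 exceeded 2 HF/HS libraries, and Cd36 passed only without it (adjusted p = 0.0156 against 0.152, limma). Cidec, which enlarges lipid droplets, was at 15.5, 0.498 and 0.378 in the controls and at 0.703, 1.17 and 0.993 on HF/HS. Its log2 difference was -0.74 with control 1 and 0.44 without it, and it passed in neither fit. Pparg, the fat-storage regulator, was at 2.79, 2.35 and 2.24 in the controls and at 6.10, 2.75 and 3.71 on HF/HS, with a narrow overlap. Mogat1, an enzyme of diacylglycerol synthesis, was under the mean of 1 needed for a test, at 0.142 to 0.370 in the controls and 0.272 to 0.929 on HF/HS.

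Of 36 fat-burning genes, 31 had a higher mean on HF/HS (median 0.27, and 0.33 without control 1). Of these 36, 2 were called higher with 118 libraries (1.66% of all genes) and 0 with 117 (0.4%). Acaa1b, a peroxisomal thiolase, was at 282.6, 952.4 and 294.6 in the controls and at 1278, 1673 and 1696 on HF/HS. Its groups did not overlap, and it passed with control 1 (adjusted p = 0.0217) and not without it (0.171, limma).

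Adam11, the gene of a cell-surface disintegrin without protease activity, had the lowest p of all genes (chromosome 11, 102761439 to 102780262). It was at 4.26, 3.47 and 1.87 in the controls and at 48.1, 44.7 and 25.6 on HF/HS. Every HF/HS library was far above every control, and the ratio of the means was 12.3. The log2 difference was 3.26 ± 0.32 (SE; adjusted p = 0.478, limma with 6 libraries), and it passed in both wider fits (adjusted p = 7.1e-15 and 1.09e-13, limma). Serpinb1a, a serine protease inhibitor chosen after its values were seen, was at 5.06, 16.5 and 3.95 in the controls and at 74.6, 54.2 and 28.5 on HF/HS. It also passed in both fits (adjusted p = 8.64e-07 and 5.69e-05, limma).

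The other genes with the lowest p did not all pass. Cyp3a11, a cytochrome P450 that clears drugs and bile acids, was at 537.8, 764.0 and 650.1 in the controls and at 1919, 1964 and 2043 on HF/HS. The HF/HS libraries were close to each other and well above the controls, but it passed in neither wider fit (adjusted p = 0.114 and 0.33, limma). Reads of the Cyp3a family may be split between near-identical copies, so which copy carries a value is uncertain. Ephx1, a microsomal epoxide hydrolase, was at 88.5, 140.4 and 146.1 in the controls and at 274.3, 326.4 and 275.8 on HF/HS, and passed only with control 1 (adjusted p = 0.0249 against 0.207, limma).

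Of the genes with lower values, Ppp4r4, a regulatory subunit of protein phosphatase 4, was at 11.1, 8.30 and 9.93 in the controls and at 4.95, 4.01 and 4.36 on HF/HS. Fndc3b, a fibronectin-domain protein, was at 14.1, 11.1 and 17.9 in the controls and at 7.03, 5.90 and 6.25 on HF/HS. Neither gene overlapped between diets, and both passed in both fits, Ppp4r4 with adjusted p = 0.00155 and 0.0102 and Fndc3b with 0.0121 and 0.0375 (limma). Ugt1a5, of a family of glucuronosyltransferases that share their last exons, was at 23.6, 33.7 and 41.3 in the controls and at 11.2, 3.59 and 7.43 on HF/HS, and passed in both fits (adjusted p = 0.00678 and 0.00835, limma).

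**Figure D3:**
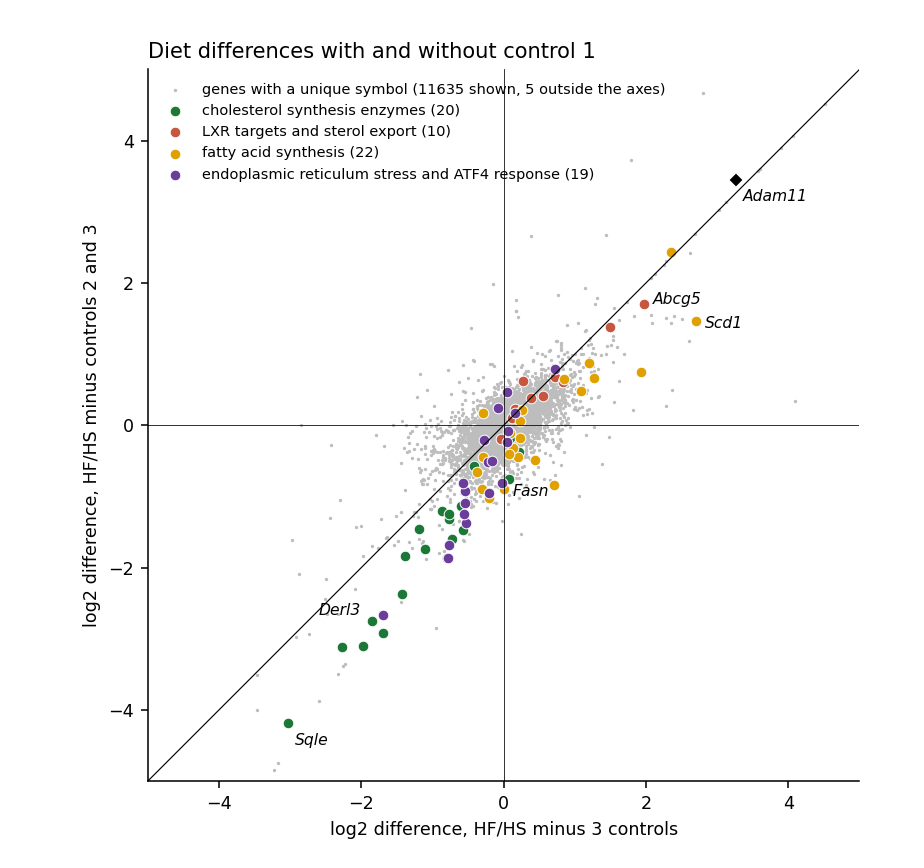
Log2 difference of each gene with 3 controls (horizontal) and with controls 2 and 3 (vertical); the diagonal marks equal values. Cholesterol synthesis genes (green) lie below the diagonal, as Sqle does at -3.03 and -4.19, most genes of LXR signalling and sterol export (red) lie near it above 0, and fatty acid synthesis genes (yellow) lie on both sides of 0.

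HF/HS 2 stood apart in some genes that differ between the sexes. Over 21 female-biased genes its median (-1.02, log2 against controls 2 and 3) was below HF/HS 1 (-0.18) and HF/HS 3 (0.19). Control 1 was lower still (-1.22). Over 18 male-biased genes HF/HS 2 (0.51) lay above the other 5 libraries (-0.34 to 0.06). Over 10 genes of the growth hormone and IGF1 axis HF/HS 2 (0.17) lay between the other HF/HS libraries. Cyp3a41a, a female-biased P450, was at 49.8 in HF/HS 2 and at 417.0 to 937.8 in the other 5 libraries. Bcl6, a repressor that opposes the female pattern, was at 27.4 in HF/HS 2 and at 3.10 to 8.44 elsewhere. Neither gene passed in either fit. The rows of Mup1, Mup9, Mup12 and Gm2083, of the major urinary protein cluster, were at 3392 or more in the controls and HF/HS 1 and listed at 0 in HF/HS 2 and 3. They passed in both fits, but with near-identical copies and zeros that may be failed estimates, no fold is given.

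Genes of the endoplasmic reticulum stress and ATF4 response had a lower mean on HF/HS in 14 of 19 members, and in 15 without control 1. The median log2 difference was -0.23 with control 1 and -0.80 without it. None passed with 118 libraries, and 5 were called lower with 117 (1.34% of all genes). Derl3, a component of protein disposal in that organelle, was at 2.60, 15.7 and 43.4 in the controls and at 2.88, 2.90 and 4.15 on HF/HS, and passed only without control 1 (adjusted p = 0.0197 against 0.147, limma). Serpina3n, an acute-phase protease inhibitor, was at 2283, 370.6 and 2610 in the controls and at 349.4, 360.8 and 484.9 on HF/HS. Controls 1 and 3 were high and control 2 lay within the range of the HF/HS libraries.

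Summed levels of the markers listed for macrophages and Kupffer cells were higher on HF/HS, by a narrow margin over control 1. The sum of the markers listed for T, B and NK cells was higher as well. The sum of the lipid-associated macrophage markers overlapped between diets, and no single marker of these lists passed. In bulk tissue, more cells of a type and more RNA per cell cannot be told apart. The 16 markers of macrophages and Kupffer cells summed to 809.8 to 1094 in the controls and to 1111 to 1309 on HF/HS. HF/HS was higher without overlap in 4 of 14 tested markers (7.96% of all genes), and in 9 without control 1 (15.6%), and 0 passed in either fit. Cd68, a lysosomal macrophage protein, was at 18.4, 21.8 and 17.9 in the controls and at 31.8, 29.2 and 28.1 on HF/HS. The 11 markers of lipid-associated macrophages summed to 424.8 to 546.8 in the controls and to 446.2 to 486.3 on HF/HS. Trem2, of that list, was at 3.07, 5.87 and 3.76 in the controls and at 3.79, 8.06 and 6.43 on HF/HS, with overlap. Gpnmb and Col1a1, of scar-associated macrophages and of collagen, had means under 1. Col1a1 was at 0.192 to 0.530 in the controls and 0.929 to 1.17 on HF/HS. The 14 markers of T, B and NK cells summed to 131.3 to 175.6 in the controls and to 195.7 to 330.2 on HF/HS. The 4 tested made up nearly all of each sum, at 128.4 to 170.7 and at 192 to 324. All 4 were higher without overlap (7.96% of all genes), with 0 called in either fit. Gzma had a mean of 0.706 in the controls and 2.11 on HF/HS. It reached the mean of 1 needed for a test only through HF/HS. The count of 4 is thus in part set by that filter, and no conclusion is drawn from it. Of the 4, Gzma was at 0.545 to 0.834 in the controls and 1.45 to 3.26 on HF/HS. Nkg7 was at 1.10 to 1.46 and at 1.69 to 3.01. Gzma and Nkg7 were thus a small part of the sum, which rests on few markers. Which cells carry the rest of it was not tested, and a rise over the whole list is not shown. Of 15 tested stellate cell and matrix markers 7 were higher without overlap (7.96% of all genes), with 0 called. The sum over that list was 271.4 to 370.9 in the controls and 265.9 to 314.9 on HF/HS. The part of these cell types in other results was not tested. Red blood cell markers summed to 1155 to 4986 in the controls and to 254.9 to 878.3 on HF/HS, and blood content was not tested as a part of any other result.

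In CC060 males Adam11 and Abcg5 were higher on HF/HS as well. Adam11 was at 3.29, 13.8 and 4.29 in male controls and at 85.7, 59.5 and 68.0 in HF/HS males, a log2 difference of 3.36 (adjusted p = 0.0153, limma with 12 libraries). Abcg5 was at 15.1, 18.5 and 17.9 in male controls and at 84.3, 52.0 and 64.8 in HF/HS males (1.88; adjusted p = 0.0199, limma). In males 25 genes (0.213%) were called. Over all 11753 genes the female and male differences correlated at 0.126 (Pearson), with 51.7% of the same sign. Without female control 1 these were 0.222 and 58.2%. Male control 3 had the largest distance from its group of all libraries compared (0.863).

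The difference between the sexes was tested in the 12 CC060 libraries, and limma called 0 genes (0%), with 501 (4.26%) at an unadjusted p under 0.05. Cyp26b1, an enzyme that breaks down retinoic acid, had the lowest p. It was at 5.54, 10.1 and 5.81 in female controls and 1.43, 1.78 and 2.33 on HF/HS, and at 0.631, 2.09 and 1.45 in male controls and 4.80, 11.02 and 9.14 on HF/HS. The diets were ordered oppositely in the sexes, and the male minus female difference was 3.43 ± 0.45 (SE; adjusted p = 0.116, limma). Fads1, a desaturase of polyunsaturated fatty acids, was at 86.7, 275.6 and 202.5 in female controls and 211.1, 134.0 and 199.6 on HF/HS, and at 206.8 to 231.7 in male controls and 30.6 to 35.3 on HF/HS. Its difference was -2.79 ± 0.50 (SE; adjusted p = 0.407, limma).

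**Figure D4:**
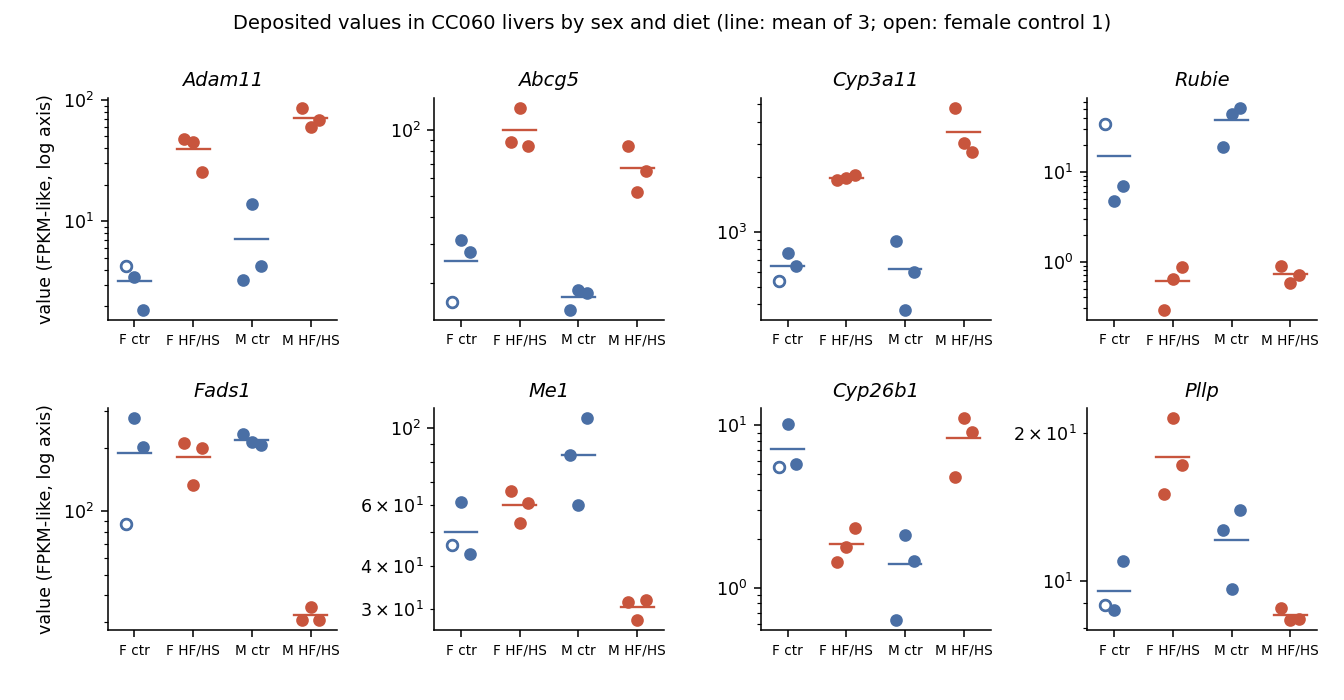
Values of 8 genes in the 12 CC060 libraries by sex and diet on a log axis, with lines at the mean of 3 and female control 1 open. Adam11 and Abcg5 are higher on HF/HS in both sexes, while Fads1 is at 30.6 to 35.3 in HF/HS males and at 134.0 to 211.1 in HF/HS females.

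The diet effect in CC060 females was compared with the mean effect in females of the other 9 strains. Of 11753 genes, limma called 5 more positive (0.0425%) and 6 more negative (0.0511%) in CC060, and without control 1 it called 6 and 39 (0.332%), with 3 genes in both. Adam11 was higher on HF/HS in all 9 other strains, with differences of 0.76 to 2.47, and CC060 exceeded their mean by 1.81 ± 0.27 (SE; adjusted p = 2.72e-04, and 2.37e-04 without control 1, limma). Its values in HF/HS females of the other strains reached 10.2. On log2(value + 1) a change from a low level counts for less, and controls of the other strains were at 0.244 to 2.13. In CC019 the Adam11 mean went from 0.681 to 8.45, beside 3.20 to 39.5 in CC060, a change of similar proportion. With all 3 controls the lead of CC060 over every other strain therefore holds on this scale and not as a ratio. Without control 1 the ratio in CC060 was 14.8 in place of 12.3, so a ranking by ratio changes with that library. Abcg5 controls of other strains were at 46.0 to 153.0, above the CC060 controls, and their HF/HS libraries were at 24.9 to 203.3. The difference of 1.69 ± 0.33 for Abcg5 passed with control 1 (adjusted p = 0.0164) and not without it (0.0653, limma).

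Rubie, a long noncoding RNA beside Bmp4 (chromosome 14, 46568331 to 46575851), was at 33.9, 4.70 and 6.90 in the controls and at 0.292, 0.638 and 0.876 on HF/HS. All HF/HS libraries were lower than all controls, and control 1 was the highest. CC060 males had 18.7, 44.3 and 51.2 in controls and 0.888, 0.584 and 0.716 on HF/HS. In the other strains' females no library exceeded 0.502, so a fall of this size could not be seen there. The CC060 effect minus their mean effect was -2.79 ± 0.28 (log2, SE), which restates the CC060 difference, since the other strains' effect is fixed near 0, and is given as a description. Ppp4r4 was the remaining gene called both ways (-0.82 ± 0.16, SE; adjusted p = 0.0164, and 0.042 without control 1, limma), and it was lower on HF/HS in all 9 other strains.

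**Figure D5:**
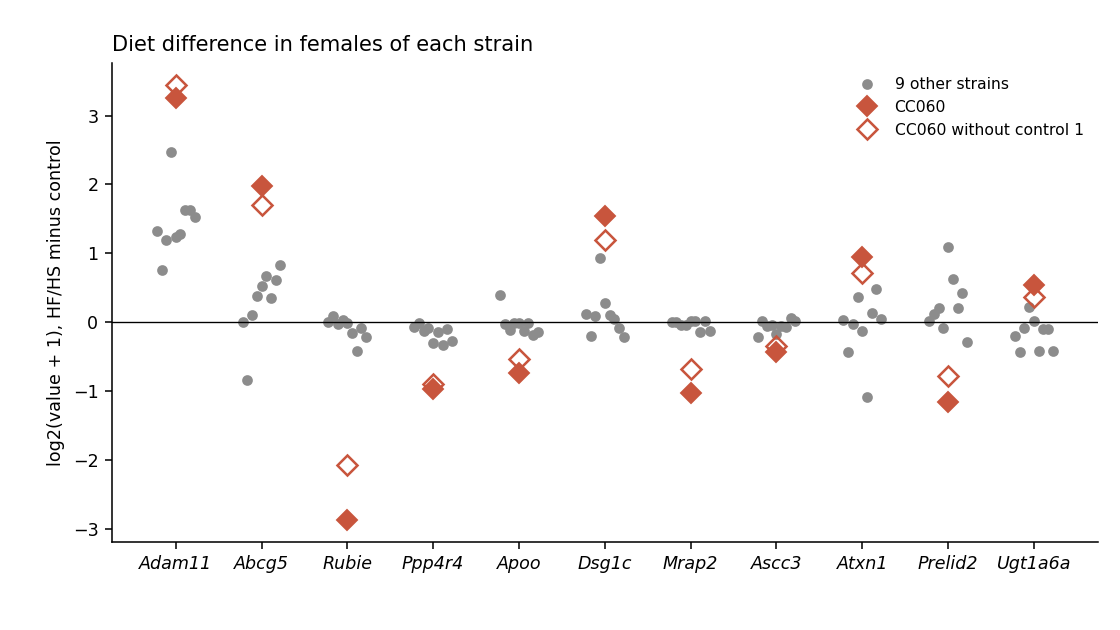
Log2 difference between diets in females of each strain for 11 genes, with grey circles for the 9 other strains, filled diamonds for CC060 and open diamonds for CC060 without control 1. The 11 genes are those whose effect in CC060 differed from the mean of the other 9 strains (limma, adjusted p under 0.05). CC060 lies outside the range of the other 9 strains in each, which follows in part from that choice and is no separate result. The scale is log2(value + 1), which understates changes from low levels. In Rubie, and in Mrap2 outside CC043, low values in the other strains keep their differences small. For Adam11 CC060 is at 3.26 against 0.76 to 2.47.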

How the data were processed

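Liver RNA of CC060 females was compared between diets in 6 libraries grouped by their titles. The authors deposited 1 table of FPKM-like values, 24883 rows and 120 columns. Its 75th percentile was close to 10 in each of the 6 libraries (9.983 to 9.999). TopHat2 2.1.1, Bowtie2 2.2.5.0, Cufflinks 2.2.1 and mm10 are named, without role, per the submitters' processing notes. The scaling and annotation are not given in the sources used here. No counts were given, so depth and counting error are unknown. A row lacking a value was dropped, and 821 rows share a symbol.

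From these values log2(value + 1) was taken for the 11753 genes whose mean in the 6 libraries reached 1, and a fold is on that scale and understates low genes. Genes were tested by limma 3.58.1 (R 4.3.3), with a trended, robust prior, two-sided, with Benjamini-Hochberg adjustment at 0.05, and it was checked on simulated data. Alternatives changed the pseudocount, filter, scaling, weights, block and libraries. The fit with 118 libraries left out 2 identical CC040 columns. With 3 libraries against 3, an exact permutation test cannot go below 0.1 and was not used. Table coordinates are mm10, counted from 1. Genes were named by a rule: the 10 lowest p in each direction without overlap where too few were called, the lowest p of each list and of each test of a difference, the largest differences of control 1, and 20 genes chosen for their roles. The comparison, the lists and the named genes were chosen with earlier results of these data known. Some genes that the rule takes are not reported here, and the counts and list medians include them.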

Additional observations from a re-analysis of the deposited data

Results flagged for a closer look

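In 11 genes the diet effect in CC060 females differed from the mean effect in females of the other 9 strains by a test of that difference (limma, adjusted p under 0.05). The log2 differences, CC060 minus the others, were 1.81 for Adam11, 1.69 for Abcg5, 1.43 for Dsg1c, a desmosomal cadherin, 1.01 for Atxn1, and 0.716 for Ugt1a6a, whose last exons are shared with other Ugt1a genes. They were -2.79 for Rubie, -1.42 for Prelid2, -1.0 for Mrap2, -0.819 for Ppp4r4, -0.713 for Apoo, a mitochondrial protein, and -0.371 for Ascc3. The size of the Adam11 excess depends on the log2(value + 1) scale, since controls of the other strains were at 0.244 to 2.13. Adam11 and Ppp4r4 passed in 16 of 17 alternative settings, and Atxn1 in 9 of 16. Without control 1, 3 of the 11 passed: Rubie, Adam11 and Ppp4r4. Values of Rubie in the other strains' females did not exceed 0.502, which fixes their diet effect near 0, so its difference is a description of CC060 and no test between strains. Mrap2, an accessory protein of melanocortin receptors, had means of 10.4 and 4.30 in CC060 controls and HF/HS (-1.04, log2). In CC043 the means were 4.35 and 3.93 (-0.14). In the other 8 strains they were at most 0.896, which holds the diet effect there near 0 on this scale. The Mrap2 difference is therefore also mainly a description of CC060, with CC043 the only other strain well above that level.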

How the results depend on the processing

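The count of genes called in CC060 females was 0 with 6 libraries and stayed 0 with pseudocounts of 0.1 and 5, a mean of at least 5, quantile and size factor scaling, an untrended prior, library weights and the library number as a replicate block. It was 4 without a filter (24882 genes), 0 to 4 when 1 library was left out, 3 with the spread of 12 CC060 libraries and 2 with 11, 342 with 118 libraries and 204 with 117. The numbers did not pair the libraries: same-numbered deviations correlated at -0.184, -0.139 and -0.0401. For the difference by sex, 0 became 6 without a filter, 43 with library weights, 0 to 4 when 1 library was left out and 1 with the replicate block. Against other females, 11 became 35 with a pseudocount of 5, 50 with quantile scaling, 310 with library weights, 25 without CC003, 20 with the identical CC040 columns, 3 with the replicate block, and 6 to 362 when 1 library was left out: 45 without control 1, 362 without control 2, 116 without control 3 and 6 without HF/HS 2. Hamp turned to -0.70 with library weights and -0.998 without control 1 (also with 117 and 11 libraries), and ranged up to 2.57 without control 2. Fasn turned to -0.047 with a pseudocount of 5, -0.0042 with size factors, -1.02 with library weights, -0.89 without control 1 and -0.39 without HF/HS 1, up to 0.50 without control 2. Cidec turned to 0.36 with library weights and 0.44 without control 1, down to -1.35 without control 3. Fads1 turned to -0.46 with library weights, -0.41 without control 1, -0.05 without HF/HS 1 and -0.0088 without HF/HS 3, up to 0.42 without control 2. The cause of these shifts was not tested. Depth is unknown, so no limit from counting can be given.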

Other observations

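Genes of the interferon response had a higher mean on HF/HS in 25 of 29 members, with a median log2 difference of 0.41, and of 0.18 without control 1, which was the lowest library in 21 of the 29. HF/HS was higher without overlap in 7 members (7.96% of all genes), such as Oas1a, an antiviral RNA sensor, at 5.12, 3.92 and 4.99 in the controls and 8.86, 7.45 and 5.55 on HF/HS, and 0 passed with 118 or 117 libraries.

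Glul, the glutamine synthetase of hepatocytes around the central vein, was at 227.6, 382.0 and 333.0 in the controls and at 520.3, 526.1 and 555.9 on HF/HS. It passed with 118 libraries (adjusted p = 0.00708) and not without control 1 (0.152, limma). Rhbg, an ammonia transporter of the same cells, was at 19.5, 16.8 and 15.6 in the controls and at 25.98, 28.3 and 30.5 on HF/HS, without overlap, and passed in neither fit (adjusted p = 0.18 and 0.267, limma).

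Gsta1 and Gsta2, glutathione transferases that share much of their sequence, were lowest in control 1. Gsta2 was at 9.93, 166.6 and 45.8 in the controls and at 319.5, 205.5 and 236.6 on HF/HS, and passed with control 1 (adjusted p = 0.00799) and not without it (0.274, limma).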
